A study of Mus musculus with 10 samples.

Results

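Keratins, cadherins, Epcam and Vim are the genes by which epithelial and mesenchymal cells are commonly told apart, and 9 of them (Krt7, Krt8, Krt18, Krt19, Cdh1, Cdh2, Cdh3, Epcam and Vim) were followed here through H3K4me3 at their promoters. They were chosen by name with their H3K4me3 values already known, so those values are a description and carry no test. Of 21728 protein-coding genes, 11617 had a promoter peak in at least 1 library, and 7 of the 9 genes were among them. The libraries were made by CUT&Tag, in which an antibody to H3K4me3 directs the Tn5 transposase to the mark, and the tagged DNA is sequenced. The cells were nEnd, mouse naive extra-embryonic endoderm, grown with no treatment from the OCT4-mCherry line, in which a red fluorescent protein reports OCT4. FACS on OCT4-mCherry and on PDGFRA at the cell surface gave 4 libraries of Oct4+ nEnd (positive for OCT4-mCherry alone), 3 of DP nEnd (positive for both) and 3 of Pdgfra+ nEnd (positive for PDGFRA alone). All 10 libraries share that line, and the study's methods describe nEnd culture in general on plates coated with mouse embryonic fibroblasts. The study's methods call its replicates biological unless stated otherwise, but the labels do not tie the libraries to cultures and hold 1 more Oct4+ nEnd library than the other populations have, so part of the spread between libraries may be technical.

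H3K4me3 marks the start sites of genes that are transcribed or open to transcription. Simple epithelia hold their shape with keratin filaments built from pairs of a type II keratin (KRT7 or KRT8) and a type I keratin (KRT18 or KRT19), and KRT8 with KRT18 is the earliest such pair of the embryo, found in trophectoderm and in endoderm. E-cadherin, the product of Cdh1, joins epithelial cells to each other and is present in both epiblast and primitive endoderm, whereas N-cadherin (Cdh2) and vimentin (Vim) are better known from mesenchymal cells.

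Sequence just before the start of Krt8, Krt18 and Epcam is shown because the Krt8 and Krt18 promoters carried peaks in DP and Pdgfra+ nEnd and in 0 of 4 Oct4+ nEnd libraries, while the Epcam promoter carried a peak in all 10. RefSeq promoter entries of GRCm38.p6 matched 5 of the 9 genes (Krt7, Krt8, Krt18, Epcam and Vim). Each line is read 5′ to 3′ on the strand of the gene and stops where the GENCODE transcript begins. Capitals mark the E-box CACCTG, which SNAIL and ZEB repressors can bind, on either strand. They also mark CCGCCC, a GC box to which SP1 can bind. In Krt8 they mark AGATAA, the kind of site bound by GATA transcription factors.
Krt8, chr15:102004483-102004592, minus strand: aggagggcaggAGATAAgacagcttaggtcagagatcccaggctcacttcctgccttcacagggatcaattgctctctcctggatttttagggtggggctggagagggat
Krt18, chr15:102027966-102028179, plus strand: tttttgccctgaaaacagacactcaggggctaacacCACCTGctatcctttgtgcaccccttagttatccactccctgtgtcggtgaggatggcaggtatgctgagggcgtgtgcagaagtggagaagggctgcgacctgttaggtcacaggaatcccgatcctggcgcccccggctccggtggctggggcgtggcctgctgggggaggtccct
Epcam, chr17:87635729-87635978, plus strand: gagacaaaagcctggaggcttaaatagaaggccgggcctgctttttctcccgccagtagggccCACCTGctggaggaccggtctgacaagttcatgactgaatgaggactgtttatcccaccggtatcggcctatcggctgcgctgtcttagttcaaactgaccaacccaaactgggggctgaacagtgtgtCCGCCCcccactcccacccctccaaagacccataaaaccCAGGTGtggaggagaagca

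The 250 bases before the RefSeq start differed in CpG content, counted as CG dinucleotides. Krt8 held 3, Epcam and Vim 8 each, Krt18 12 and Krt7 16, where the median of 16522 promoters was 10 and the quartiles were 3 and 19. So the keratin pair that was marked in the same libraries spans a CpG-poor and a middling promoter, and Krt7, with the most CpG of the 5, had no peak in any library. Both strands were searched for 7 motifs. CACCTG was found before Krt7, Krt8, Krt18 and Epcam but not Vim, and 16.6% of all promoters of this length hold it. The copy before Krt8 lies within the part that GENCODE counts as transcribed. For Krt7 and Vim the whole stretch lies past the first GENCODE start, so their CpG counts and motifs are from such sequence too. CCGCCC was found before Krt7 and Epcam (44.3% of promoters), AGATAA before Krt8 (8.89%), and TATAAA (11.9%, a TATA box) and CCAAT (36.0%, a CCAAT box) before Vim. TTTGCAT (3.72%, part of the octamer that OCT4 binds) and AACCGG (6.77%, part of a GRHL site) were found before none of the 5. These matches describe letters and not binding.

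A gene counted as marked if any peak touched, with at least 1 bp, the stretch spanning 1000 bp before and 100 bp after any of its annotated TSSs (GENCODE M21). Each deposited peak has a total signal, which is the coverage summed over its length, and a highest coverage. No scaling between libraries is stated for either, so each peak was placed by its percentile, the share of the peaks of its own library with a value at or below its own. The libraries held 3477 to 10545 peaks, the fewest in Oct4+ nEnd replicate 3 (3477) and replicate 4 (4887), and sequencing depth is unknown. Of 8 epiblast markers, all 8 were marked in each Oct4+ nEnd library, 5 to 7 in DP nEnd and 0 to 3 in Pdgfra+ nEnd. Of 9 primitive endoderm markers, all 9 were marked in each DP and Pdgfra+ nEnd library and 0 to 5 in Oct4+ nEnd. Pou5f1 and Pdgfra are on these lists and were themselves used for the sort. In a sorted bulk population, fewer cells with the mark and less mark per cell cannot be told apart.

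Across the 9 genes, Oct4+ nEnd libraries had 3.0 ± 1.15 marked (SD, n = 4), DP nEnd 6.67 ± 0.577 (SD, n = 3) and Pdgfra+ nEnd 6.33 ± 1.15 (SD, n = 3). The numbers were 4, 4, 2 and 2 in Oct4+ nEnd replicates 1 to 4, 6, 7 and 7 in DP nEnd, and 7, 5 and 7 in Pdgfra+ nEnd. Every DP and Pdgfra+ nEnd library thus had more of them marked than any Oct4+ nEnd library. Over all genes the populations overlapped, with 4012 to 9524 marked per library in Oct4+, 8554 to 9821 in DP and 7347 to 11123 in Pdgfra+ nEnd. When each library was cut to its 3477 peaks of highest total signal, the number of the smallest library, the difference was gone, with 2.0 of the 9 genes marked per library in Oct4+, DP and Pdgfra+ nEnd alike. With Oct4+ nEnd replicates 3 and 4 left out, an alternative chosen after seeing the data, the Oct4+ nEnd number was 4.0. In the deposited consensus peaks, Cdh1, Cdh2, Epcam and Vim (4 of 9) were marked in Oct4+ nEnd, and 7 of 9 in DP and in Pdgfra+ nEnd, where Krt8, Krt18 and Krt19 were added.

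**Figure D1:**
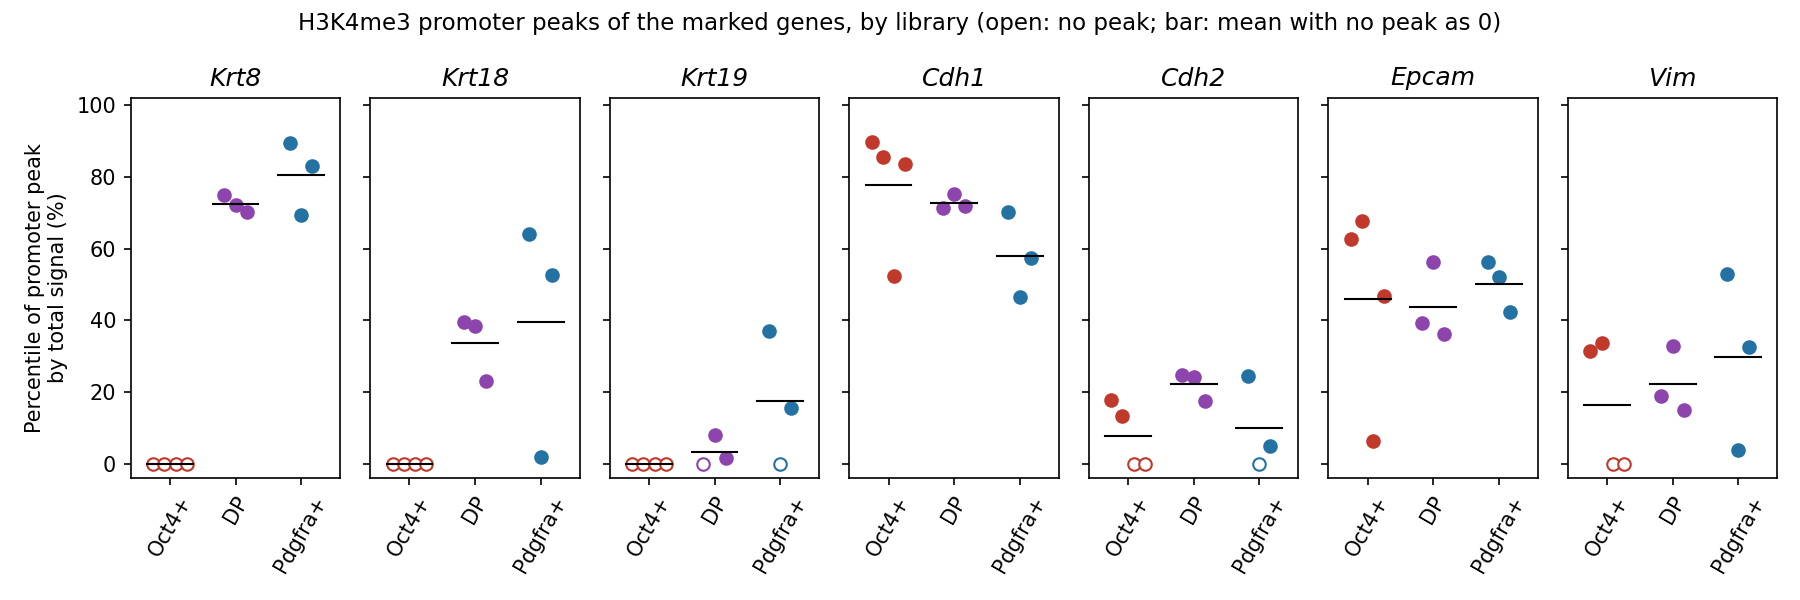
Percentile of the promoter peak by total signal (vertical axis, percent of peaks in the same library) for the 7 marked genes in each of the 10 libraries, with points ordered by replicate within a population, open circles at 0 for libraries with no peak, and bars at the mean. Krt8 and Krt18 are at 0 in all 4 Oct4+ nEnd libraries and above 0 in all 6 others, while Cdh1 and Epcam have a peak in all 10.

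Populations were called apart for a gene where the lowest percentile by total signal in 1 population was above the highest in the other, with an unmarked library at 0. Krt8 and Krt18 were apart and higher in Pdgfra+ than in Oct4+ nEnd, as were 18.8% of all genes tested, and 4.62% were apart in the other direction, none of the 9 among them. The same 2 keratin genes were higher in DP than in Oct4+ nEnd, as were 23.3% of all genes, against 4.22% higher in Oct4+ nEnd. They were also marked in every Pdgfra+ and in 0 of 4 Oct4+ nEnd libraries (2.69% of all genes), and in every DP and in 0 of 4 Oct4+ nEnd libraries (3.64% of all genes). Between DP and Pdgfra+ nEnd, Cdh1 was higher in DP nEnd (2.69% of all genes), and none of the 9 was higher in Pdgfra+ nEnd (4.64% of all genes). The balance of all genes depended on the peak numbers. With equal numbers of peaks, 1146 genes were higher in Oct4+ and 1410 in Pdgfra+ nEnd, in place of 537 and 2185, and Cdh1 was then among those higher in Oct4+ nEnd. Without Oct4+ nEnd replicates 3 and 4 the numbers were 2145 and 2188. For DP against Pdgfra+ nEnd, 312 higher in DP and 539 higher in Pdgfra+ nEnd became 537 and 413 with equal numbers of peaks. The genes were selected on these contrasts, so nothing is read from their counts beside these shares.

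Krt8 (ENSMUSG00000049382.10) encodes the type II keratin of simple epithelia and lies on the minus strand of chromosome 15 of GRCm38, from 101996698 to 102004482. Its promoter peak stood at the 74.9, 72.1 and 70.2 percentiles by total signal in DP nEnd replicates 1, 2 and 3. In Pdgfra+ nEnd it stood at 89.5, 69.4 and 82.9. All 6 were in the upper part of their libraries, the DP nEnd values lay close together (72.4 ± 2.35, SD, n = 3), and the Pdgfra+ nEnd values (80.6 ± 10.2, SD, n = 3) spread on either side of them. Oct4+ nEnd had no peak here, and the nearest peak to the TSS was 68041 to 68898 bp away in its 4 libraries. The mean percentile was therefore 72.4 points higher in DP and 80.6 points higher in Pdgfra+ than in Oct4+ nEnd. By highest coverage the peak stood at 69.8, 66.8 and 67.5 in DP nEnd and at 89.7, 58.5 and 83.2 in Pdgfra+ nEnd, the same order of libraries within Pdgfra+ nEnd. The peak was 4736, 4367 and 4930 bp wide in DP nEnd and 6571, 2191 and 4616 bp in Pdgfra+ nEnd, and the narrow peak of Pdgfra+ nEnd replicate 2 reached only 231 bp upstream of the TSS. In all 6 libraries the peak also overlapped the promoter of the lincRNA Gm36026, so the mark may not belong to Krt8 alone.

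Krt18 (ENSMUSG00000023043.7), the type I partner of KRT8, lies next to it on the plus strand, from 102028180 to 102032027, with 23698 bp between their TSSs and the transcripts pointing away from each other. No peak joined the 2 promoters. The Krt18 peak stood at the 39.4, 38.5 and 22.9 percentiles by total signal in DP nEnd and at 63.9, 1.89 and 52.5 in Pdgfra+ nEnd. It was below the Krt8 peak of the same library in all 6. No Oct4+ nEnd library had a peak, the nearest being 44343 to 45200 bp from the TSS. The mean difference was 33.6 points between DP and Oct4+ nEnd and 39.4 points between Pdgfra+ and Oct4+ nEnd, and the Pdgfra+ nEnd spread was wide (39.4 ± 33.0, SD, n = 3) because of replicate 2. By highest coverage the peak stood at 25.9, 24.7 and 28.6 in DP nEnd and at 42.1, 3.36 and 47.6 in Pdgfra+ nEnd. The peak was 7834, 7494 and 2332 bp wide in DP nEnd and 7014, 2436 and 3632 bp in Pdgfra+ nEnd. The wide peaks extended upstream, by 4820 and 3649 bp in DP nEnd replicates 1 and 2 and by 4099 bp in Pdgfra+ nEnd replicate 1, whereas the peak reached 175 bp upstream in Pdgfra+ nEnd replicate 2. Leaving out a single library cannot undo a call of apart, so Krt8 and Krt18 stayed apart from Oct4+ nEnd by definition. With 50% of the promoter stretch required to lie in a peak, the short upstream reach removed Krt8 and Krt18 from Pdgfra+ nEnd replicate 2 and Krt18 from DP nEnd replicate 3. Krt8 was then still apart between Oct4+ and DP nEnd, and neither gene was apart between Oct4+ and Pdgfra+ nEnd. With equal numbers of peaks Krt18 was not marked in any library, so that it was not apart in any pair, while Krt8 was apart in all 3.

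Krt19 (ENSMUSG00000020911.14), the type I keratin found in ductal and other simple epithelia, is on the minus strand of chromosome 11, from 100140810 to 100148665, and had the weakest keratin peaks. DP nEnd replicate 1 had none, and replicates 2 and 3 stood at the 7.88 and 1.52 percentiles by total signal. Pdgfra+ nEnd replicates 1 and 3 stood at 37.0 and 15.6, and replicate 2 had none. The peaks were 3322 to 4850 bp wide and overlapped 2 of the 3 TSS windows of the gene. Oct4+ nEnd had no Krt19 peak in 4 libraries, with the nearest peak 171701 to 172440 bp away. Krt19 was not apart in any pair because 1 library of each of the other populations also lacked the peak. Krt7 (ENSMUSG00000023039.17), a type II keratin of glandular epithelia and trophoblast, lies on the plus strand of chromosome 15 from 101411043 to 101430313 and had no promoter peak in any of the 10 libraries, with the nearest 121746 to 126229 bp from its TSS.

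How the keratins compared between DP and Pdgfra+ nEnd changed with the libraries and peaks used. With all libraries both populations overlapped for Krt8, Krt18 and Krt19. Without Pdgfra+ nEnd replicate 2 all 3 keratins were apart and higher in Pdgfra+ than in DP nEnd, by total signal and by highest coverage. Krt19 was then also higher in Pdgfra+ than in Oct4+ nEnd, by both measures. The number of all genes higher in Pdgfra+ than in DP nEnd also went from 539 to 1718 of 11617 without Pdgfra+ nEnd replicate 2. The change was thus not limited to keratins. The mean difference of Krt18, DP minus Pdgfra+ nEnd, turned from −5.83 to 6.42 points without Pdgfra+ nEnd replicate 1 and to 0.698 without replicate 3. With equal numbers of peaks Krt8 was apart and higher in Pdgfra+ than in DP nEnd with all libraries in (DP minus Pdgfra+ nEnd, −22.3 points). Replicate 2 held the narrowest peaks of the 10 libraries (median 2204.5 bp, against 3032.5 to 4222.5 bp in the others) and the fewest of the Pdgfra+ nEnd libraries (6510). Whether the width of its peaks contributed to its low keratin percentiles was not tested.

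**Figure D2:**
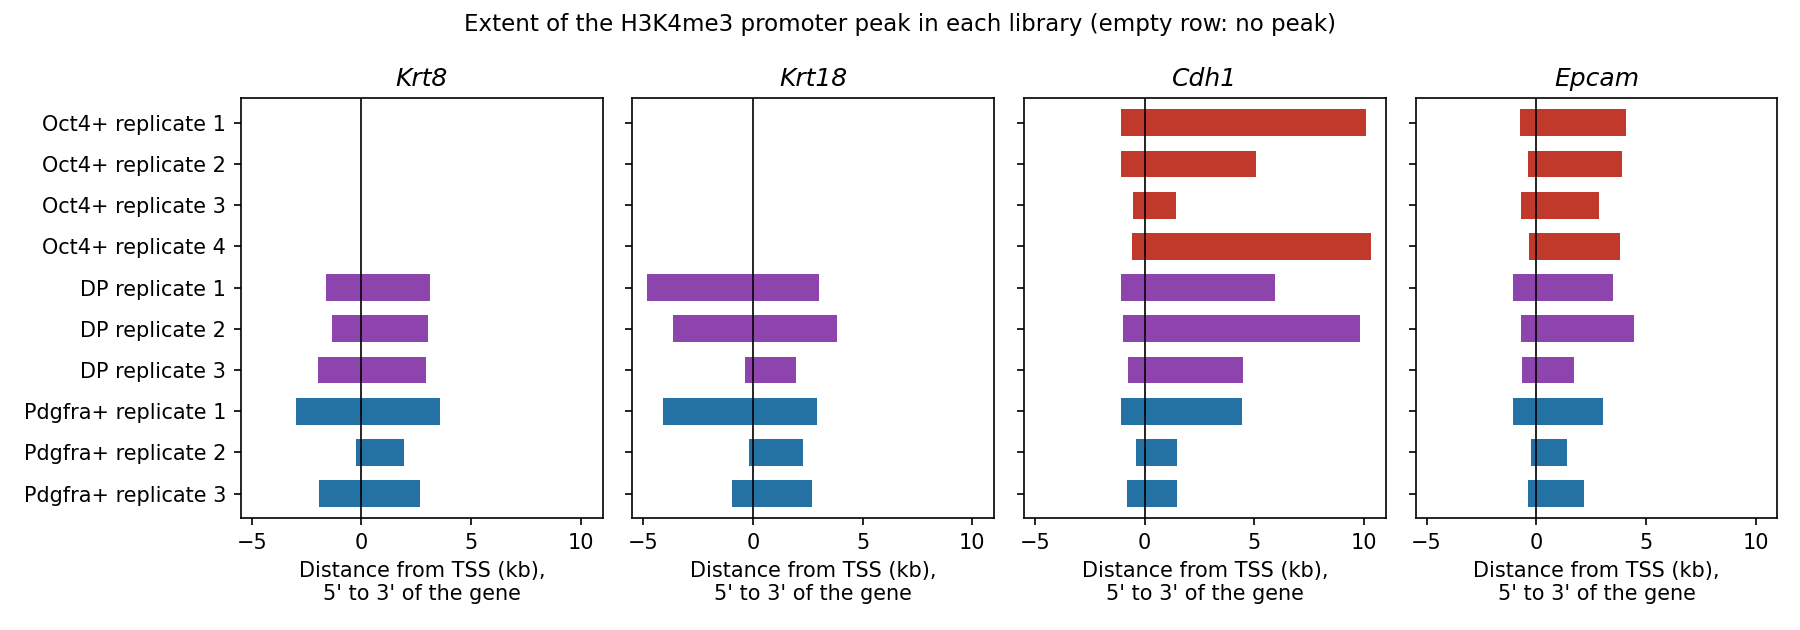
Extent of the promoter peak of Krt8, Krt18, Cdh1 and Epcam in each library, as distance from the TSS in kb along the direction of the gene, coloured by population. The Oct4+ nEnd rows are empty for Krt8 and Krt18, and the Cdh1 peak extends furthest into the gene, by 10308 bp in Oct4+ nEnd replicate 4.

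Cdh1 (ENSMUSG00000000303.12), which encodes E-cadherin, lies on the plus strand of chromosome 8 from 106603351 to 106670246 and was marked in all 10 libraries, with a peak over each of its 3 TSS windows. By total signal the peak stood at the 89.9, 85.5, 52.4 and 83.6 percentiles in Oct4+ nEnd replicates 1 to 4. It stood at 71.2, 75.1 and 71.9 in DP nEnd and at 70.3, 46.4 and 57.2 in Pdgfra+ nEnd. The Oct4+ nEnd values of replicates 1, 2 and 4 were the highest of the 10 libraries, and replicate 3 alone placed Oct4+ nEnd across the other populations. The means were 77.8 ± 17.2 (SD, n = 4), 72.7 ± 2.07 (SD, n = 3) and 58.0 ± 11.95 (SD, n = 3). DP nEnd was above Pdgfra+ nEnd by a mean of 14.8 points, but the gap between its lowest and the highest Pdgfra+ nEnd library was small (71.2 against 70.3). By highest coverage that gap closed, with 75.02, 78.5 and 80.0 in DP nEnd and 75.8, 53.1 and 59.4 in Pdgfra+ nEnd. Oct4+ nEnd stood at 93.9, 92.8, 75.7 and 82.4 by this measure. Without Oct4+ nEnd replicate 3, Cdh1 was apart and higher in Oct4+ than in both DP and Pdgfra+ nEnd, by either measure. When the 3477 peaks of highest total signal were kept in every library, Cdh1 was apart and higher in Oct4+ nEnd than in the other populations and in DP than in Pdgfra+ nEnd, with all libraries in.

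In Oct4+ nEnd replicates 1, 2 and 4 the Cdh1 peak was also wider than that of any other of the 9 genes, but not in replicate 3. It measured 11156, 6192, 1934 and 10886 bp there, 7051, 10775 and 5286 bp in DP nEnd and 5502, 1866 and 2287 bp in Pdgfra+ nEnd. It reached 10077 and 10308 bp past the TSS in Oct4+ nEnd replicates 1 and 4 and 9798 bp in DP nEnd replicate 2, and at most 4416 bp in Pdgfra+ nEnd. Cdh3 (ENSMUSG00000061048.8), P-cadherin, known from basal epithelium and placenta, is the neighbour of Cdh1 on the same strand, with 92460 bp between their TSSs. It had no promoter peak in any library, and its nearest peak, 91358 to 92057 bp away, was that of Cdh1.

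Epcam (ENSMUSG00000045394.9), an adhesion molecule of epithelial and pluripotent cells on the plus strand of chromosome 17 from 87635979 to 87651129, was marked in all 10 libraries over all 4 of its TSS windows. The peak stood at the 62.7, 67.6, 6.15 and 46.8 percentiles by total signal in Oct4+ nEnd, at 39.1, 56.3 and 36.0 in DP nEnd and at 56.3, 51.9 and 42.2 in Pdgfra+ nEnd. The 3 populations overlapped in every pair, and the lowest and the highest values were both from Oct4+ nEnd, in replicates 3 and 2. By highest coverage it stood at 64.1, 66.5, 4.43 and 55.5 in Oct4+ nEnd, at 47.3, 68.3 and 42.1 in DP nEnd and at 62.8, 75.1 and 46.5 in Pdgfra+ nEnd. With equal numbers of peaks Epcam was apart and higher in Oct4+ than in DP nEnd, and without DP nEnd replicate 2 it was apart and higher in Pdgfra+ than in DP nEnd. Without Oct4+ nEnd replicates 3 and 4, Epcam was apart and higher in Oct4+ nEnd than in DP and Pdgfra+ nEnd by total signal, and it overlapped in both pairs by highest coverage. The peak was 3565 to 4809 bp wide in Oct4+ nEnd, 2378 to 5131 bp in DP nEnd and 1650 to 4107 bp in Pdgfra+ nEnd.

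Cdh2 and Vim, the genes of N-cadherin and of vimentin, the intermediate filament protein of mesenchymal cells, ranked low by highest coverage in every population, at no more than 10.96 and 28.3 percent. Cdh2 (ENSMUSG00000024304.14) lies on the minus strand of chromosome 18 from 16588877 to 16809246. It stood at the 17.7 and 13.2 percentiles by total signal in Oct4+ nEnd replicates 1 and 2, at 24.7, 24.1 and 17.5 in DP nEnd and at 24.4 and 5.0 in Pdgfra+ nEnd replicates 1 and 3. Its peak was missing from Oct4+ nEnd replicates 3 and 4 and Pdgfra+ nEnd replicate 2, the 3 libraries with the fewest peaks of all 10. No pair of populations was apart for Cdh2 with all libraries in. It was apart and higher in DP than in Oct4+ nEnd by total signal without Oct4+ nEnd replicate 1 or DP nEnd replicate 3, and higher in DP than in Pdgfra+ nEnd by both measures without Pdgfra+ nEnd replicate 1. Where present it was 2798 to 3861 bp wide, a narrower range than that of Cdh1 or Krt18.

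Vim (ENSMUSG00000026728.9), on the plus strand of chromosome 2 from 13573927 to 13582826, was marked in 8 of 10 libraries and again missed Oct4+ nEnd replicates 3 and 4. By total signal it stood at 31.5 and 33.6 in Oct4+ nEnd replicates 1 and 2, at 18.9, 32.8 and 15.0 in DP nEnd and at 52.9, 3.72 and 32.5 in Pdgfra+ nEnd. The highest and the lowest of these were both in Pdgfra+ nEnd, and no pair of populations was apart by total signal. By highest coverage Vim was lower still, at 12.2 and 17.5 in Oct4+ nEnd, 1.89, 7.90 and 2.24 in DP nEnd and 28.3, 0.476 and 12.4 in Pdgfra+ nEnd. Without Oct4+ nEnd replicates 3 and 4 it was apart and higher in Oct4+ than in DP nEnd by highest coverage alone. Without Pdgfra+ nEnd replicate 2 it was apart and higher in Pdgfra+ than in DP nEnd, again by highest coverage alone. Fibroblasts express Vim, and fibroblast markers were read beside it because nEnd is generally grown on fibroblasts, although these libraries were made after FACS for OCT4-mCherry or PDGFRA. Of 15 of them, 12 had no promoter peak in any library, the collagen genes Col1a1, Col1a2 and Col3a1 among these. Of the others, Twist1 was marked in 2 Oct4+, 2 DP and 1 Pdgfra+ nEnd libraries (up to 13.0). Tbx18 was marked in 1, 2 and 1 (up to 20.7), and Fbn1 in 1 Pdgfra+ nEnd library (8.89). The summed percentile of the list was 0 to 10.7 in Oct4+ nEnd, 0 to 21.6 in DP nEnd and 0 to 38.0 in Pdgfra+ nEnd.

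**Figure D3:**
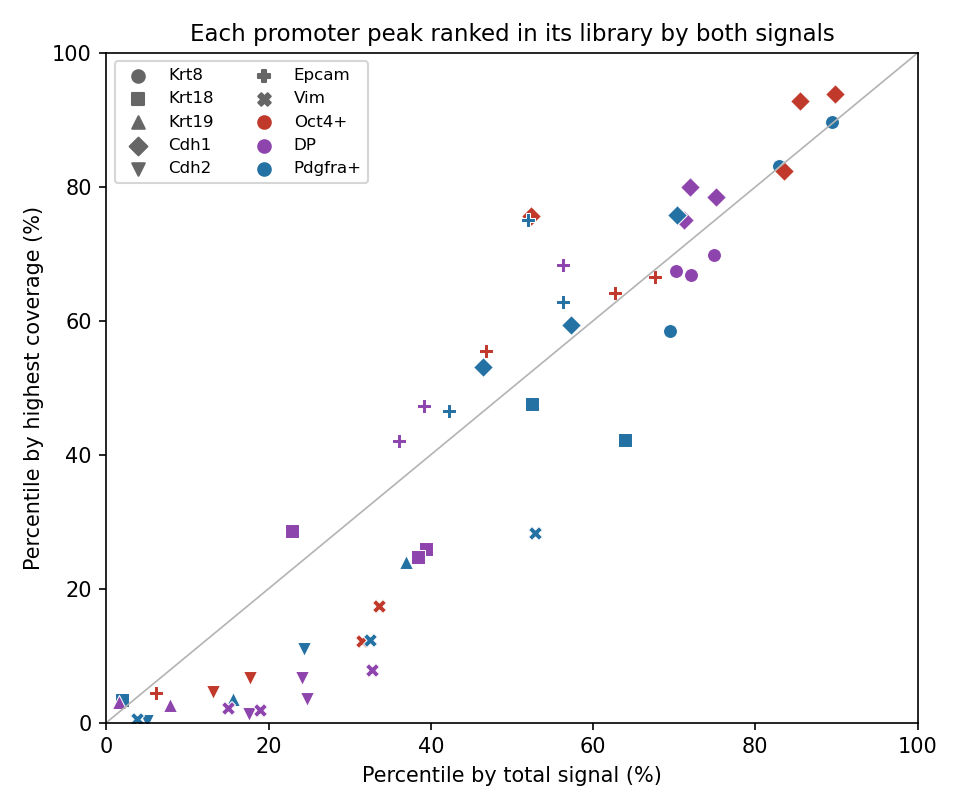
Percentile by highest coverage against percentile by total signal for every promoter peak of the 7 marked genes, with symbols for genes, colours for populations and a line of equal percentiles. Cdh2 and Vim peaks lie below the line, at no more than 10.96 and 28.3 percent by highest coverage, while all Cdh1 peaks but that of Oct4+ nEnd replicate 4 lie above it.

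The measures thus ordered the genes differently. Cdh1 gained rank by highest coverage in 9 of 10 libraries, whereas all Cdh2 and Vim peaks lost rank. Krt18 gained rank where its peak was narrowest, in DP nEnd replicate 3 and Pdgfra+ nEnd replicate 2, and lost rank in the 4 other libraries with a peak. Both measures put Krt8 above Krt18, and Krt18 above Krt19, in all libraries where both genes of the pair were marked. Total signal grows with the width of a peak, and highest coverage does not.

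For each marked gene, the protein-coding genes whose 10 percentiles by total signal lay closest, by the mean absolute difference over the 10 libraries, were listed. Krt8 was most like Mpp2 (1.23 points), Frzb (2.17) and Pcgf5 (2.18), and Krt18 most like Gata3 (1.80), Gpx3 (2.19) and Arhgap29 (2.35). All but Pcgf5 of these 6 had no peak in the 4 Oct4+ nEnd libraries, which follows from their choice by likeness to genes at 0 there. Gata3 stood at 21.4 to 41.6 in DP nEnd and at 6.80 to 58.2 in Pdgfra+ nEnd. Krt19 was most like Tns2 (1.01), Fam173a (1.10) and Elmo3 (1.10), Cdh1 most like Hunk (4.22), Spindoc (4.59) and Epc1 (4.67), and Epcam most like Eef1e1 (5.04), Lpcat1 (5.37) and Tmed10 (5.66). Cdh2 was most like Ndrg3 (2.89), H2afy2 (2.93) and Grina (3.06), and Vim most like Med15 (3.01), Cbx2 (3.16) and Tjap1 (3.18). The likeness is a description over 10 libraries that share depth and width differences, and the distances are larger for genes marked in all libraries than for genes at 0 in several.

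KRT8 and KRT18 are also keratins of trophectoderm, so its markers were read beside them. Of 8 markers, 2 to 3 were marked in Oct4+ nEnd, 3 to 4 in DP nEnd and 2 to 5 in Pdgfra+ nEnd libraries, with summed percentiles of 96.7 to 217, 136 to 197 and 106 to 239. Elf5 and Hand1 were at 0 in all 10 libraries, and Cdx2 was marked in 2 of 3 DP, 2 of 3 Pdgfra+ and 0 of 4 Oct4+ nEnd libraries. Gata3 was marked in all DP and Pdgfra+ and 0 of 4 Oct4+ nEnd libraries, and Gata2 in 1 Pdgfra+ nEnd library (16.7). Tfap2c ran the other way, with 46.1 to 80.4 in Oct4+ nEnd and no peak in the 6 other libraries. Tead4 was marked in all 10 and apart in all 3 pairs, with 50.6 to 94.1 in Oct4+, 94.8 to 96.4 in DP and 97.0 to 99.0 in Pdgfra+ nEnd. Eomes was higher in DP (19.8 to 33.8) than in Pdgfra+ nEnd (0 to 15.6) and overlapped with Oct4+ nEnd (0 to 47.9), so the list had no single direction. Primitive endoderm markers were high in the same libraries as the keratins, with summed percentiles of 0 to 119 in Oct4+ nEnd, 849 to 858 in DP nEnd and 782 to 873 in Pdgfra+ nEnd. Their part in the keratin values was not tested.

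The rest of the keratin and cadherin families was almost unmarked, where 11617 of 21728 protein-coding genes had a peak in at least 1 library. Of 49 other keratins, Krt10, a keratin of stratified epidermis, was the only gene with a peak, in 1 Oct4+ nEnd and 1 Pdgfra+ nEnd library. Krt8, Krt18 and Krt19 were thus the only keratins of the lists marked in more than 2 libraries. Of 20 other cadherins, 3 were marked anywhere. Cdh4 had a peak in 1 Oct4+ nEnd library alone (17.2). Cdh6, a cadherin of kidney and neural epithelium, was marked in every DP (41.7 to 55.2) and Pdgfra+ (24.99 to 68.2) and in 0 of 4 Oct4+ nEnd libraries, the pattern of Krt8. Cdh24 was marked in every DP (23.1 to 38.4) and Pdgfra+ nEnd library (31.7 to 50.2) and in 1 of 4 Oct4+ nEnd libraries (7.10).

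Genes that work with E-cadherin were read next. Of 10 catenins and nectins, 9 were marked in at least 1 library, as were 11617 of 21728 protein-coding genes. In all 10 libraries 6 of them were marked, for which no share over all genes was computed. Ctnnb1, which encodes β-catenin, stood at 76.8 to 84.0 in Oct4+, 76.4 to 80.6 in DP and 47.3 to 79.6 in Pdgfra+ nEnd. Nectin2 was apart and higher in Oct4+ nEnd (94.6 to 98.0) than in DP (91.6 to 93.4) and Pdgfra+ nEnd (79.4 to 93.3). Vcl, which encodes vinculin, was apart in the other direction, with 0 to 44.2 in Oct4+, 51.9 to 61.2 in DP and 46.8 to 73.1 in Pdgfra+ nEnd. Nectin1 (82.2 to 86.6 against 62.2 to 78.4) and Nectin3 (41.2 to 47.5 against 0 to 40.1) were apart and higher in DP than in Pdgfra+ nEnd, as Cdh1 was.

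Tight junction, desmosome and polarity genes were read in the same way, beside 11617 of 21728 protein-coding genes marked in at least 1 library. Of 23 tight junction genes, 15 were marked anywhere, and Cldn4 was marked in every Oct4+ nEnd library (90.6 to 97.3), lower in DP nEnd (5.09 to 19.4) and in 0 of 3 Pdgfra+ nEnd libraries. Cldn6 (98.6 to 98.8), Ocln (79.6 to 81.4) and Cldn7 (42.0 to 49.7) were apart and higher in DP than in Oct4+ nEnd, where Cldn6 stood at 0 to 83.1, Ocln at 0 to 47.8 and Cldn7 at 0 to 34.5. Cgn, the gene of cingulin, was marked in every Pdgfra+ (1.59 to 29.8) and 0 of 4 Oct4+ nEnd libraries. Of 13 desmosome genes, 7 were marked, and Dsp, the desmoplakin that anchors keratin filaments, was apart and higher in DP (56.2 to 68.0) and Pdgfra+ (51.9 to 73.5) than in Oct4+ nEnd (0 to 32.3). Pkp4 was apart and higher in Pdgfra+ (83.1 to 86.9) than in DP (74.6 to 81.4) and Oct4+ nEnd (24.3 to 80.1). All 13 apical polarity genes were marked in at least 1 library, and 5 were apart and higher in Pdgfra+ than in Oct4+ nEnd (18.8% of all genes) and 5 in DP than in Oct4+ nEnd (23.3% of all genes). Patj among them was marked in all 6 DP and Pdgfra+ nEnd libraries (45.6 to 53.9 and 25.4 to 68.6) and in 0 of 4 Oct4+ nEnd libraries.

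**Figure D4:**
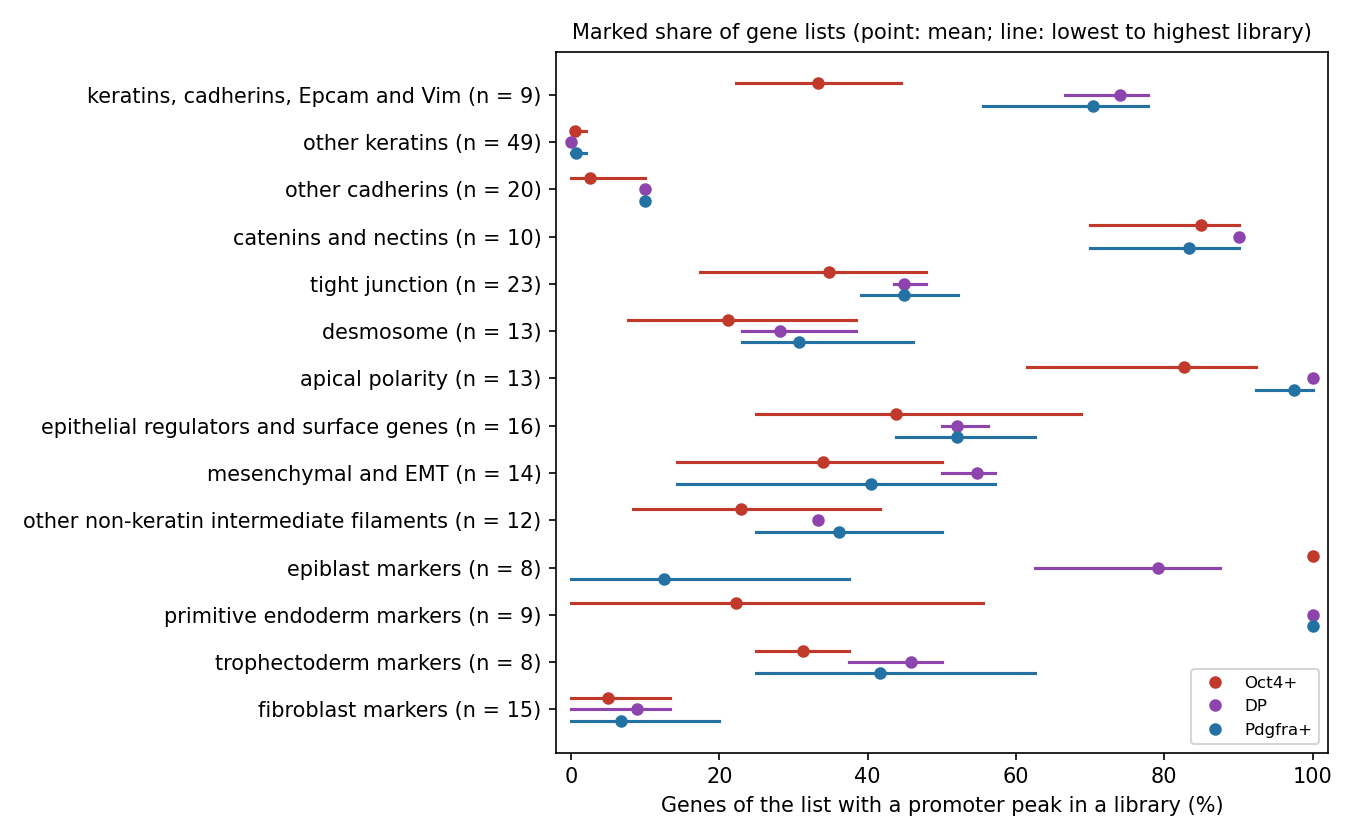
Share of the genes of each list with a promoter peak (horizontal axis, percent), as the mean of each population with a line from its lowest to its highest library. The 9 genes followed here lie lowest in Oct4+ nEnd, with 2 to 4 of 9 marked, and the other keratins lie near 0 in all populations. Epiblast markers separate all populations, and primitive endoderm markers separate only Oct4+ nEnd from the others.

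Regulators of epithelial and mesenchymal state were found on both sides. Esrp1 and Esrp2, epithelial splicing factors, were apart and higher in DP (88.0 to 88.9 and 95.6 to 97.0) and Pdgfra+ nEnd (81.2 to 93.1 and 95.6 to 98.9) than in Oct4+ nEnd (0 to 47.5 and 46.4 to 74.1). Elf3, a transcription factor of epithelia, was apart in all 3 pairs, with 0 to 30.3 in Oct4+, 89.6 to 90.9 in DP and 57.4 to 85.7 in Pdgfra+ nEnd. Spint1, a protease inhibitor of epithelia, was apart and higher in Oct4+ (76.7 to 93.0) than in Pdgfra+ nEnd (64.7 to 73.2). Snai1, which encodes a repressor of Cdh1, was apart and higher in DP and Pdgfra+ than in Oct4+ nEnd, with 0 to 2.21 in Oct4+, 70.1 to 74.8 in DP and 62.8 to 83.3 in Pdgfra+ nEnd. Zeb1, another such repressor, was apart and higher in Oct4+ nEnd, with 37.4 to 63.7 in Oct4+, 24.2 to 33.0 in DP and 0 to 27.8 in Pdgfra+ nEnd, and so did Fn1, the gene of fibronectin (39.2 to 89.8, 26.7 to 33.3 and 0 to 30.0). Of 14 mesenchymal genes, 2 were apart and higher in Oct4+ than in Pdgfra+ nEnd (4.62% of all genes) and 2 in Pdgfra+ nEnd (18.8% of all genes), and 2 were higher in Oct4+ than in DP nEnd (4.22% of all genes) and 3 in DP nEnd (23.3% of all genes). Sparc, a matrix protein gene of parietal endoderm, was among those higher in DP and Pdgfra+ nEnd (0 to 13.4 in Oct4+, 95.3 to 98.2 in DP and 94.3 to 98.9 in Pdgfra+ nEnd). Zeb2 was marked in every DP (3.72 to 15.7) and 0 of 4 Oct4+ nEnd libraries. Of 12 other intermediate filament genes, 7 were marked in at least 1 library (11617 of 21728 over all genes). Lmna was apart and higher in DP (63.6 to 65.8) and Pdgfra+ (34.96 to 70.7) than in Oct4+ nEnd (0 to 11.3), as was Lmnb2 (30.6 to 43.4, 37.6 to 56.9 and 0 to 29.5). Lmnb1 was apart and higher in Oct4+ (97.2 to 99.4) than in DP nEnd (95.3 to 96.3), and Nefl was higher in DP (14.3 to 27.8) than in Oct4+ nEnd (0 to 1.95).

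An exact two-sided permutation test of the mean percentile was run over all 11617 genes. It gave 1387 genes at an unadjusted p under 0.05 for Oct4+ against Pdgfra+ nEnd, 1320 for Oct4+ against DP nEnd and 0 for DP against Pdgfra+ nEnd. None passed Benjamini-Hochberg adjustment in any pair, with lowest adjusted p of 0.239, 0.251 and 1.0 in this exact permutation test, since 4 libraries against 3 allow no p below 0.0286 and 3 against 3 none below 0.10. The list genes are therefore given by counts and ranges. Over all genes tested the median percentile difference was −7.42 points for Oct4+ minus Pdgfra+ nEnd and −6.83 for Oct4+ minus DP nEnd, with an unmarked library at 0. For the 7 marked genes it was −13.4 and −5.98, and 0.0 in both pairs with equal numbers of peaks.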

How the data were processed

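H3K4me3 CUT&Tag libraries of sorted nEnd were used as deposited. Per the study's methods and the submitters' processing notes, the authors demultiplexed with bcl2fastq 2.19.1, aligned paired-end reads to mm10 with Bowtie2, used SAMtools 1.12, computed coverage with BEDtools 2.26.0, used the stringent mode of SEACR with IgG as control for peaks, and made consensus peaks with DiffBind. The deposited values are signal, as total and highest coverage of each peak, with no scaling between libraries stated, so percentiles within a library were used. Peak number and width can change with reads and enrichment, which was not tested, and an unmarked promoter means only that no peak was called. Depth is unknown, so no interval was computed. Consensus lists gave positions only.

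TSSs were those of all 93160 promoter starts of protein-coding genes in GENCODE M21. Where a gene had several promoter peaks, the highest percentile was taken. Members and gene lists were chosen with earlier results of these data known. Named were all 9 members, genes sharing their peaks, the 3 most similar genes of each, and for each list, pair and direction up to 3 genes marked in every library of 1 population and none of the other, or failing that apart, with the highest lowest percentile first. Ctnnb1, Cdh4, Cdh24, Krt10 and the genes of the cell type marker lists were named outside this rule, after their values were seen. Exact permutation tests of the mean percentile were tested on simulated data. Alternatives were another window, overlap, transcript set, ranking or number of peaks, each library left out, and a replicate block. Same-numbered libraries of 2 populations had correlations of −0.203 to 0.210, so numbers were not treated as pairs. At most 0.0566% of the peaks of a library had the same ends in another. Values were computed in Python 3.11.15 with pandas 2.3.3, numpy 2.4.6 and scipy 1.17.1, and plotted in matplotlib 3.10.9.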

Additional observations from a re-analysis of the deposited data

Results flagged for a closer look

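The percentile of Cdh1 by total signal in Oct4+ nEnd replicate 3, 52.4, stood far from the other 3 libraries of that population (83.6 to 89.9), with a gap of 0.833 of the whole range. It was the only one of 12 such comparisons over the 9 genes to stand out, and chance alone gives about 1 in 20. The same library had the fewest peaks (3477) and a Cdh1 peak of 1934 bp, and whether these are connected with the low percentile was not tested.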

How the results depend on the processing

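None of the 5 member differences between populations that were apart changed sign. Leaving out a library could not change the sign of any of them. Those of Krt8 and Krt18 from Oct4+ nEnd could not change sign at all, because Oct4+ nEnd stood at 0 throughout. With equal numbers of peaks, both Krt18 differences from Oct4+ nEnd fell to 0.0. Differences between overlapping populations changed sign in 20 cases, 11 of them with 1 library left out. For Krt8 the difference DP minus Pdgfra+ nEnd went from −8.20 to 14.9 with 50% cover, for Epcam Oct4+ minus Pdgfra+ nEnd from −4.34 to 11.1 with equal numbers of peaks, and for Vim Oct4+ minus DP nEnd from −5.98 to 3.41 by highest coverage. So no direction is given for these by total signal with all libraries and peaks. Directions given elsewhere hold only for the alternative named there. A wider promoter stretch (2500 bp on each side) and protein-coding transcripts alone kept every count within 1.5 times. With a peak required to cover 50% of the stretch, 0 of the 9 genes were apart for Oct4+ against Pdgfra+ nEnd and 1 for Oct4+ against DP nEnd. Ranked by highest coverage, 0 of the 9 and 3 list genes were apart for DP against Pdgfra+ nEnd, 334 genes were higher in Pdgfra+ than in DP nEnd and 1357 higher in Pdgfra+ than in Oct4+ nEnd. With equal numbers of peaks, 2.0 of the 9 genes were marked per library in each of Oct4+, DP and Pdgfra+ nEnd, 2 were apart between DP and Pdgfra+ nEnd (Cdh1 and Krt8), and Krt18 was marked nowhere. The all-gene counts were then 1146 (higher in Oct4+) and 1410 (higher in Pdgfra+) for Oct4+ against Pdgfra+ nEnd, 1018 and 1521 (higher in DP) for Oct4+ against DP nEnd, and 537 (higher in DP) and 413 for DP against Pdgfra+ nEnd.

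Without Oct4+ nEnd replicates 3 and 4, chosen after seeing the data, 4 of the 9 genes were apart in each pair with Oct4+ nEnd, 2145 and 2862 genes were higher in Oct4+ than in Pdgfra+ and DP nEnd, and 39 and 43 list genes were apart. Leaving out single libraries gave 1 to 4 of the 9 apart for DP against Pdgfra+ nEnd (4 without Pdgfra+ replicate 2) and 6 to 20 list genes (20 without Pdgfra+ replicate 1). The all-gene counts ranged from 537 to 961 (higher in Oct4+, most without Oct4+ replicate 3, and 900 without Pdgfra+ replicate 1) and 2185 to 3534 (higher in Pdgfra+, most without Pdgfra+ replicate 2) for Oct4+ against Pdgfra+ nEnd, from 490 to 988 higher in Oct4+ than in DP nEnd (most without Oct4+ replicate 3), and from 312 to 2685 (higher in DP, most without Pdgfra+ replicate 1, and 495 and 629 without DP replicates 1 and 3) and 539 to 1718 (higher in Pdgfra+, most without Pdgfra+ replicate 2, and 1022 and 1330 without DP replicate 2 and Pdgfra+ replicate 3) for DP against Pdgfra+ nEnd. With the replicate block, the exact permutation test gave 0 genes after adjustment in each pair, where the smallest p possible is 0.25, and 3 of 9 same-numbered pairs correlated above 0.1. The causes were not tested.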
